A study of Mus musculus with 11 samples.

Results

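The 45 genes described here are cell cycle and proliferation genes, a listed set of S phase and mitosis genes read from whole lacrimal gland RNA, among 19058 genes in the count table. They were listed by name, with no threshold on a measured value, and all 45 were found. Of these, 12 act in DNA replication, 4 are cyclins or the cyclin-dependent kinase they bind, 9 are mitotic kinases and checkpoint or chromosomal passenger proteins, 3 act in mitotic exit, 5 are kinetochore proteins, 8 act in the spindle or in cytokinesis, and 4 act on chromosome structure. The samples were lacrimal glands of 11 male NOD mice, a strain whose males spontaneously develop lacrimal gland inflammation, with RNA from a single gland of each mouse. Of the mice, 3 were wild type (WT) and 5 carried *Tlr7* KO, a CRISPR/Cas9-made deletion of 2 base pairs in the gene of the RNA sensor TLR7 in a line fixed from a single allele, both at 20 to 22 weeks of age. The other 3 mice carried *Ifnar1* KO (*Ifnar1*em16/em16), which removes a subunit of the type I interferon receptor, and their age is not given separately in the sources used here. Both knockouts affect every cell of the mouse, and the study dropped 1 further *Ifnar1* KO gland that clustered with WT and was as inflamed, so the *Ifnar1* KO values are those of the glands that were kept. The comparisons address whether loss of TLR7 or of type I interferon signaling changed the expression of proliferation genes in the gland.

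A dividing cell copies its DNA in S phase, when the MCM helicase opens the double helix, PCNA clamps the polymerases to it and ribonucleotide reductase and thymidylate synthase supply the nucleotides. It then enters mitosis under cyclin A, cyclin B and CDK1, attaches its chromosomes to the spindle through kinetochores, and leaves mitosis when the anaphase-promoting complex marks the cyclins for degradation. Transcripts of the mitotic genes are made mainly in cycling cells, whereas several replication genes also serve DNA repair and nucleotide supply in resting cells. In a chronically inflamed gland, dividing cells can be activated lymphocytes as well as epithelial, stromal or endothelial cells, and whole-tissue RNA does not separate them.

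Libraries held 20512315 to 28814250 counts over all genes, and the 45 members together took 1278 to 4457 counts of a library. Levels are given as CPM, counts scaled to a common library total, with the trimmed mean of M values (TMM), in the order of the mouse numbers, and a gene is called differentially expressed (DE) at a Benjamini-Hochberg adjusted p under 0.05 in the edgeR quasi-likelihood test over all 13937 genes with at least 30 counts summed over the WT mice. Of the 45 members, 43 passed that filter, and the kinetochore gene *Nuf2* and the checkpoint kinase gene *Ttk* did not. Intervals and tests cover these mice only. The targeted genes were checked first. Each was DE lower in both knockouts, so their levels do not tell the knockouts apart. By the edgeR test the log2 fold change of *Tlr7* in *Ifnar1* KO mice was -2.1 (adjusted p = 0.0273). That of *Ifnar1* in *Tlr7* KO mice was -0.51 (adjusted p = 0.0203). *Tlr7* stood at 2.92, 1.53 and 2.71 CPM in the WT mice, 0.766, 0.7802, 0.949, 0.496 and 0.891 CPM in the *Tlr7* KO mice and 0.615, 0.822 and 0.251 CPM in the *Ifnar1* KO mice, below every WT mouse in both knockouts, and its fall in *Tlr7* KO mice had an exact two-sided permutation p of 0.0179, the smallest that 3 against 5 mice allow. *Ifnar1* stood at 14.99, 10.6 and 14.98 CPM in the WT mice, 9.96, 11.1, 9.38, 8.96 and 8.28 CPM in the *Tlr7* KO mice and 8.37, 9.08 and 9.61 CPM in the *Ifnar1* KO mice, and the exact two-sided permutation p in *Ifnar1* KO mice was 0.1, the smallest that 3 against 3 mice allow. The epithelial marker *Epcam* stood at 61.4, 83.3 and 77.8 CPM in the WT mice, 74.3, 73.3, 75.3, 72.4 and 65.6 CPM in the *Tlr7* KO mice and 71.2, 73.5 and 69.8 CPM in the *Ifnar1* KO mice, read in every mouse of what is labelled as a gland.

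Most members were read shallowly. The median member had 40, 10 and 56 counts in the 3 WT mice, 22, 31, 30, 28 and 18 in the *Tlr7* KO mice and 13, 22 and 7 in the *Ifnar1* KO mice. In the mouse *Ifnar1* KO 3, 27 of the 45 members had fewer than 10 counts, and *Ttk*, *Cenpf* and *Kif11* had 0, which at 3 counts allows up to 0.125 CPM each. In WT 2, 22 members had fewer than 10 counts.

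The mitotic members differed between mice of the same genotype, and the same mice were low or high for most of them. WT 2 was the lowest of the 3 WT mice for 42 of the 45 members and for all 33 members outside the replication group, and it lay below every *Tlr7* KO mouse for 33 of the 45. *Ifnar1* KO 2 was the highest of its group for 40 of the 45. Summed over the 33 members outside the replication group, the level was 47.3, 15.1 and 51.4 CPM in the WT mice, 30.4, 35.2, 38.4, 34.7 and 29.4 CPM in the *Tlr7* KO mice and 14.6, 26.2 and 10.9 CPM in the *Ifnar1* KO mice. Every *Tlr7* KO mouse was therefore above every *Ifnar1* KO mouse, WT 1 and WT 3 were above both knockouts, and WT 2 fell among the *Ifnar1* KO mice. The 12 replication members summed to 66.2, 54.04 and 70.5 CPM, then 58.4, 60.6, 60.6, 60.4 and 56.6 CPM, and then 43.8, 62.2 and 42.6 CPM in the same order, with narrower gaps. The coefficient of variation of a member outside the replication group had a median of 57.7% over the WT mice, 28.7% over the *Tlr7* KO mice and 60.3% over the *Ifnar1* KO mice. For the replication members the medians were 24.4%, 11.6% and 24.1%. The heat map of all members by mouse shows the same pattern gene by gene.

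**Figure D1:**
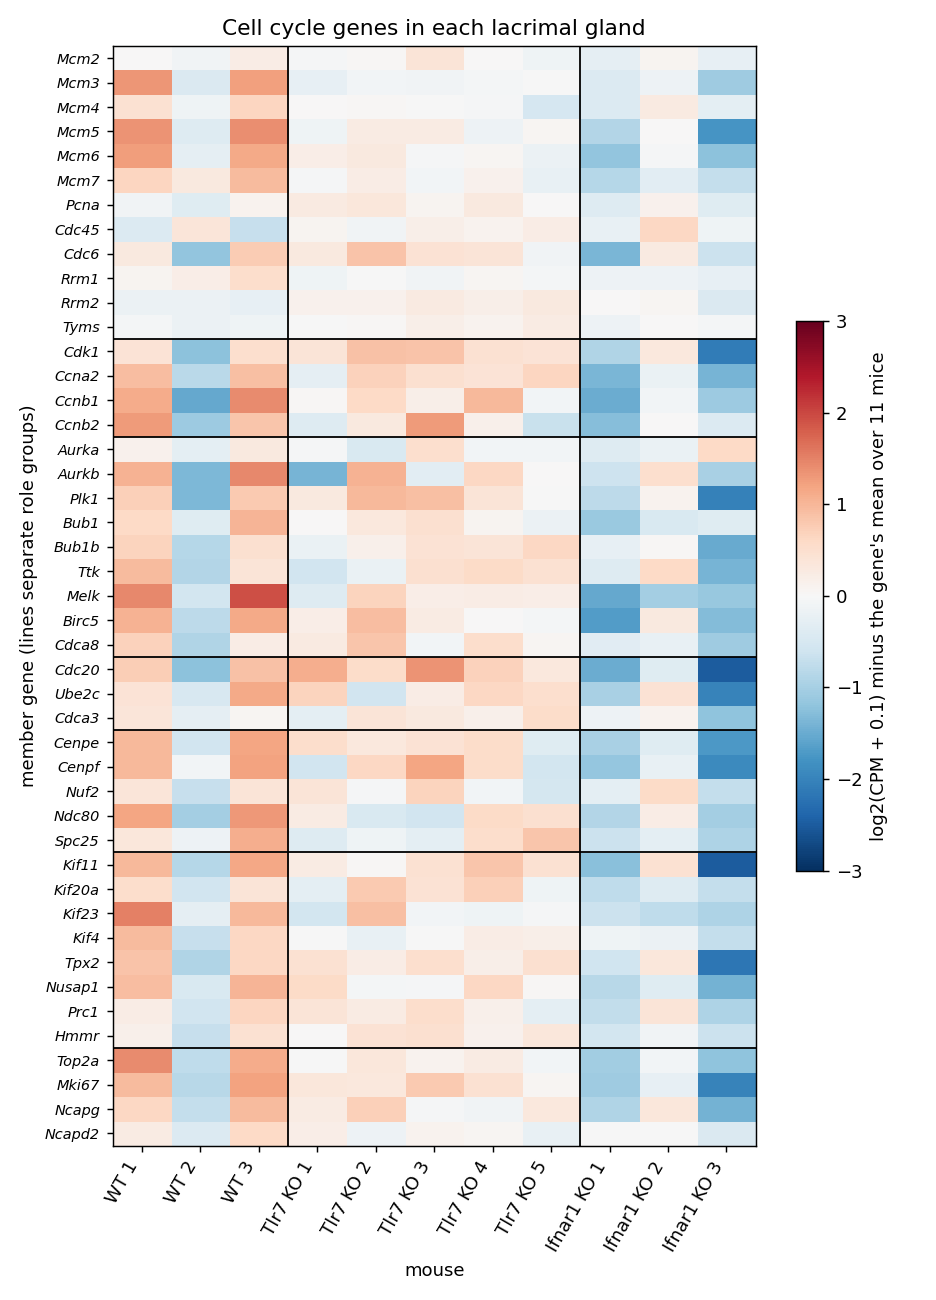
Each row is a member and each column a mouse, and the colour is log2(CPM + 0.1) minus the gene's mean over the 11 mice, with horizontal lines between role groups and vertical lines between genotypes. WT 2 is blue for most members while WT 1 and WT 3 are red, the 5 *Tlr7* KO mice are near or above the mean for most, and *Ifnar1* KO 1 and 3 are blue.

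The promoters of the members are shown because most members had estimates of the same sign in *Ifnar1* KO mice, and they share short sequence motifs that the choice of genes did not use. Of the 45 members, 40 had a promoter window (250 bases before to 50 bases after the transcription start, RefSeq, GRCm38.p6), searched on both strands beside the windows of 27025 genes. The CCAAT box (CCAAT), the motif bound by NF-Y, was present in 33 of the 40 members (82.5%) and in 37.8% of all windows. The cell cycle genes homology region, or CHR (TTTGAA or TTCGAA), through which the DREAM complex acts on many mitotic genes, was present in 26 of 40 (65.0%) and in 19.4% of all windows. E2F motifs (TTCCCGC or TTCGCGC or TTGCCGC or TTGGCGC), which E2F factors bind at S phase genes, were present in 13 of 40 (32.5%) and in 9.7% of all windows. A match to TTGGCGC can share bases with a CCAAT box on the other strand. Split by role, 3 of 11 replication members and 23 of 29 other members held a CHR, whereas 7 of 11 replication members and 6 of 29 others held an E2F motif. Of the 34 CHR matches in members, 22 began within 50 bases of the start, a position that was not counted over all windows. A match is a string of letters and not a shown binding site.

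**Figure D2:**
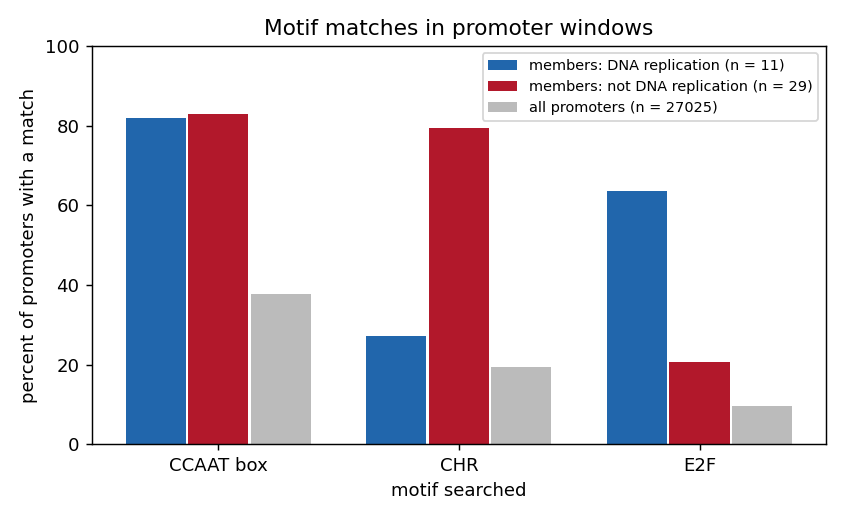
Bars give the percent of promoter windows with at least 1 match to each motif, for the 11 replication members, the 29 other members and all 27025 windows. CHR matches are at 79.3% in the other members against 27.3% in replication members, and E2F matches at 20.7% against 63.6%.

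The promoters of 6 members are printed below, 5′ to 3′ on the gene's strand with CCAAT, CHR and E2F matches in capitals on whichever strand they occur. They are those of *Mcm3*, *Rrm2*, *Melk* and *Kif23*, which were DE in a comparison below, and of *Mki67* and *Cdc20*. Each begins 180 bases before the start, and the end is cut so that no more than 30 bases of annotated exon are shown.
*Mcm3*, chr1:20820283-20820492, minus strand: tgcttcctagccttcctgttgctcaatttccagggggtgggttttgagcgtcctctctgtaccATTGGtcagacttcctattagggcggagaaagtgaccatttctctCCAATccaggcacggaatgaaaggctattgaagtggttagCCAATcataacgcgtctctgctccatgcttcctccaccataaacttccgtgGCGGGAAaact
*Rrm2*, chr12:24708074-24708270, plus strand: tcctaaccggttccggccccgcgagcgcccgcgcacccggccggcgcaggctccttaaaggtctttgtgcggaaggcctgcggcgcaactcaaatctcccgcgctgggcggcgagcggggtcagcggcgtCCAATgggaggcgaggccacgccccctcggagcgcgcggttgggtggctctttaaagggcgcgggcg
*Melk*, chr4:44300737-44300905, plus strand: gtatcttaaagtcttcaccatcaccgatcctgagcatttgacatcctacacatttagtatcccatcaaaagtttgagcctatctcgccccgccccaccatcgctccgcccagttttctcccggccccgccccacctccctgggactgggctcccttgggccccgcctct
*Cdc20*, chr4:118437323-118437523, minus strand: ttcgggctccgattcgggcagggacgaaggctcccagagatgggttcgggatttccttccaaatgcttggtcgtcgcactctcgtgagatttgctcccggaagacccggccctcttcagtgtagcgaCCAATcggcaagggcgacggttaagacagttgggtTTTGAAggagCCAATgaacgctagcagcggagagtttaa
*Kif23*, chr9:61946770-61946979, minus strand: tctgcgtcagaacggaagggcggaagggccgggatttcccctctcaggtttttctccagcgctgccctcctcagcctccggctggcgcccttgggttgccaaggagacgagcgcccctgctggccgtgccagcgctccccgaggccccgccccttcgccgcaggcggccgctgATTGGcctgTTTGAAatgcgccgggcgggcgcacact
*Mki67*, chr7:135716350-135716559, minus strand: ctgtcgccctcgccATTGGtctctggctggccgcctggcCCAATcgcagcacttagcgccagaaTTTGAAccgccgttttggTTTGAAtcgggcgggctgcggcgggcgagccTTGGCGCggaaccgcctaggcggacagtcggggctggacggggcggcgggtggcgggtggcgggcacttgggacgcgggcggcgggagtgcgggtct
As printed, *Mki67* and *Cdc20* carry CCAAT boxes and CHR matches, *Kif23* carries a CCAAT box with a CHR beside the start, *Mcm3* carries CCAAT boxes with an E2F match after the start, *Rrm2* a single CCAAT box, and *Melk* none of the searched letters in its window. *Mcm7*, also DE, is not printed because it overlaps annotated exons by more than 30 bases. Median fold changes are given for the members with and without a motif. Between *Ifnar1* KO and WT mice the median log2 fold change was -1.26 over the 25 tested members with a CHR and -1.57 over the 13 without it, and -1.29 over the 13 with an E2F motif and -1.37 over the 25 without it.

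Between WT and *Tlr7* KO glands, few members changed. The helicase subunit genes *Mcm3* and *Mcm7* were lower in *Tlr7* KO mice and *Rrm2*, the regulated subunit of ribonucleotide reductase, was higher, and no other member was DE by the edgeR quasi-likelihood test. These 3 of 43 members compare with 32.5% of all genes tested being DE, 17.1% lower and 15.3% higher in *Tlr7* KO mice. The median log2 fold change of the members was -0.29 (all genes, -0.04), with 28 of 43 below 0 (all genes, 53.2%). At an unadjusted p under 0.05 there were 7 members lower (all genes, 24.0%), which were *Mcm3*, *Mcm4*, *Mcm5*, *Mcm6*, *Mcm7*, *Rrm1* and *Melk*, and 2 higher (all genes, 20.7%), *Pcna* and *Rrm2*. The count of members lower moved with every mouse left out. Without WT 2, 13 of 42 members were DE lower and 2 higher in *Tlr7* KO mice (all genes, 25.6% and 23.4%), and without WT 1 or WT 3 no member was lower (all genes, 10.1% and 9.5%), with 3 members in either direction at an unadjusted p under 0.05 by edgeR in each case (all genes, 36.6% and 36.8%). Without any 1 *Tlr7* KO mouse, *Mcm7* alone was lower.

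*Mcm3* (ENSMUSG00000041859, chr1:20802968-20820312, minus strand) stood at 5.495, 1.53 and 5.14 CPM in the WT mice, 1.76, 1.99, 1.97, 2.02 and 2.097 CPM in the *Tlr7* KO mice and 1.57, 1.91 and 0.961 CPM in the *Ifnar1* KO mice. WT 2 lay below every *Tlr7* KO mouse while WT 1 and WT 3 lay far above them, so the groups overlapped. The log2 fold change was -1.06 ± 0.34 (SE, adjusted p = 0.0398) by the edgeR quasi-likelihood test. This call was lost in 7 of 8 fits that left out 1 mouse (all but that without WT 2, adjusted p up to 0.16) and in the other count table (adjusted p = 0.0689). *Mcm7* (ENSMUSG00000029730, chr5:138164583-138172422, minus strand), which shares exon bases with *Ap4m1* and *Cops6* and hosts microRNA genes, stood at 4.99, 3.92 and 6.21 CPM in the WT mice, 3.101, 3.73, 2.96, 3.47 and 2.67 CPM in the *Tlr7* KO mice and 1.71, 2.504 and 1.88 CPM in the *Ifnar1* KO mice. Its WT and *Tlr7* KO mice did not overlap, and the log2 fold change was -0.67 ± 0.174 (SE, adjusted p = 0.0175) by the edgeR test, a call lost without WT 1 (adjusted p = 0.0518) or WT 3 (adjusted p = 0.0888). *Rrm2* (ENSMUSG00000020649, chr12:24708241-24714146, plus strand) stood at 4.65, 4.599 and 4.43 CPM in the WT mice, 5.71, 5.76, 6.34, 5.91 and 6.396 CPM in the *Tlr7* KO mice and 5.26, 5.46 and 3.85 CPM in the *Ifnar1* KO mice, with every *Tlr7* KO mouse above every WT mouse. Its log2 fold change was 0.40 ± 0.101 (SE, adjusted p = 0.0149) by the edgeR test, and -0.10 when libraries were scaled by their totals alone, a scaling under which the median of all genes was -0.54. Without WT 3 its adjusted p was 0.0526.

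The remaining helicase subunits had lower estimates in *Tlr7* KO mice, apart from *Mcm2*. Log2 fold changes by the edgeR test were -0.97 ± 0.358 (SE, adjusted p = 0.0633) for *Mcm5*, -0.80 ± 0.299 (SE, adjusted p = 0.0685) for *Mcm6*, -0.47 ± 0.194 (SE, adjusted p = 0.0908) for *Mcm4* and 0.01 ± 0.144 (SE, adjusted p = 0.954) for *Mcm2*. *Rrm1*, the large subunit of ribonucleotide reductase, differed by -0.33 ± 0.121 (SE, adjusted p = 0.0584) and its groups did not overlap, as they did not for *Mcm7*, *Rrm2* and *Tyms* (2 members lower and 2 higher, against 14.5% and 16.1% of all genes). *Tyms*, the thymidylate synthase gene, differed by 0.23 ± 0.118 (SE, adjusted p = 0.151). *Rrm1* and *Rrm2* thus had estimates of opposite sign in the same mice.

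*Pcna*, the sliding clamp, stood at 9.63, 8.01 and 11.2 CPM in the WT mice, 12.5, 13.3, 11.01, 12.7 and 10.4 CPM in the *Tlr7* KO mice and 7.89, 11.3 and 8.07 CPM in the *Ifnar1* KO mice, and its log2 fold change in *Tlr7* KO mice was 0.31 ± 0.127 (SE, adjusted p = 0.0832) by the edgeR test. *Cdc45*, a cofactor of the helicase that shares exon bases with *Ufd1*, stood at 7.53, 12.9 and 6.18 CPM in the WT mice, 10.8, 9.36, 11.5, 10.9 and 11.7 CPM in the *Tlr7* KO mice and 8.71, 15.7 and 9.24 CPM in the *Ifnar1* KO mice, with WT 2 above WT 1 and WT 3. The edgeR test gave 0.30 ± 0.208 (SE, adjusted p = 0.291) for it. *Cdc45* was among the few members for which WT 2 was not the lowest WT mouse.

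Among the mitotic members, none was DE between WT and *Tlr7* KO mice (all genes, 32.5%). Without WT 2, *Birc5*, *Ccnb1*, *Kif23*, *Melk*, *Mki67*, *Ndc80* and *Top2a* were DE and lower in *Tlr7* KO mice, in a fit where 25.6% of all genes were. *Mki67* (ENSMUSG00000031004, chr7:135689784-135716361, minus strand), which codes for the Ki-67 antigen used to stain dividing cells, stood at 7.497, 2.09 and 8.99 CPM in the WT mice, 4.86, 4.81, 6.68, 5.25 and 3.98 CPM in the *Tlr7* KO mice and 1.78, 3.21 and 0.878 CPM in the *Ifnar1* KO mice. The *Tlr7* KO mice lay between WT 2 and the other two WT mice, with group means of 6.19 ± 3.63 CPM in WT (SD, n = 3) and 5.12 ± 0.988 CPM in *Tlr7* KO (SD, n = 5), and the log2 fold change was -0.29 ± 0.395 (SE, adjusted p = 0.605) by the edgeR test, or -0.69 without WT 2 (adjusted p = 0.00678). The estimate changed sign in 1 of 16 settings, a fit that left out another mouse. *Cdk1*, the kinase that drives entry into mitosis, stood at 1.66, 0.469 and 1.804 CPM in the WT mice, 1.65, 2.34, 2.31, 1.74 and 1.68 CPM in the *Tlr7* KO mice and 0.615, 1.57 and 0.209 CPM in the *Ifnar1* KO mice. Its *Tlr7* KO mice all lay above WT 2 and spanned WT 1 and WT 3, and the estimate was 0.54 ± 0.37 (SE, adjusted p = 0.288). *Top2a*, the topoisomerase that untangles sister chromatids, stood at 4.61, 0.937 and 3.69 CPM in the WT mice, 1.65, 2.12, 1.78, 1.98 and 1.57 CPM in the *Tlr7* KO mice and 0.751, 1.57 and 0.669 CPM in the *Ifnar1* KO mice, with an estimate of -0.77 ± 0.401 (SE, adjusted p = 0.166). *Melk*, a kinase gene of cycling cells, had -1.20 ± 0.508 (SE, adjusted p = 0.0944) and *Kif23*, a motor of the central spindle, had -0.99 ± 0.523 (SE, adjusted p = 0.169) by the edgeR test. With 1 mouse left out at a time, the estimates ran from -1.19 to -0.36 for *Top2a*, from -1.66 to -0.66 for *Melk* and from -1.38 to -0.51 for *Kif23*.

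**Figure D3:**
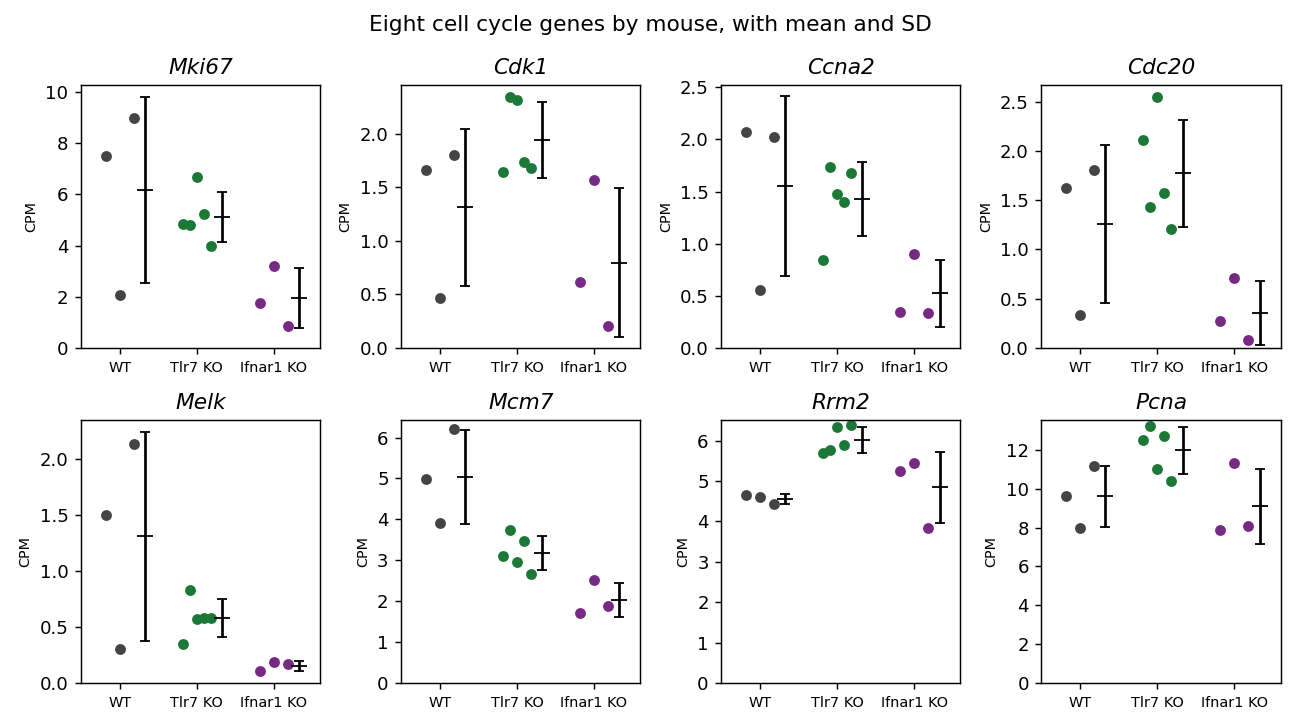
Each point is the TMM-scaled CPM of 1 mouse for 8 members, with the group mean and SD as a bar beside the points, for WT (n = 3), *Tlr7* KO (n = 5) and *Ifnar1* KO (n = 3). WT 2 sits apart from the other WT mice for *Mki67*, *Cdk1*, *Ccna2*, *Cdc20* and *Melk*, but not for *Rrm2*.

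Between the same 3 WT mice and the *Ifnar1* KO mice, nearly every member had a lower estimate in *Ifnar1* KO glands, but few passed the test. *Melk*, *Kif23* and *Mcm7* were DE and lower by the edgeR quasi-likelihood test, and 0 members were higher (all genes, 6.92%). These 3 of 43 members compare with 12.1% of all genes tested being DE and lower (19.0% in either direction). The count was 8 by DESeq2 (all genes, 15.0%) and 15 with all 11 mice in 1 edgeR fit (all genes, 18.9%). The filter reads WT counts alone, and members that passed it only through WT had to be higher there. With filterByExpr, which reads both groups, 34 members were tested with a median of -0.92, *Melk* and *Kif23* were not among them and *Mcm7* alone was DE. With no filter, the same 3 members were DE as with the WT filter. The members had a median log2 fold change of -1.29 (all genes, -0.02) and 40 of 43 were below 0 (all genes, 51.3%). At an unadjusted p under 0.05, 15 members were lower (all genes, 21.7%) and 0 higher (all genes, 15.7%). The groups did not overlap for 7 members, all lower in *Ifnar1* KO mice (all genes, 21.2% lower and 20.4% higher). These were *Mcm7*, *Rrm1*, *Bub1*, *Melk*, *Cenpf*, *Spc25* and *Kif23*. Here too every mouse moved the count. Without WT 2, 19 of 42 members were DE and lower (all genes, 20.6%). When WT 1, WT 3 or the *Ifnar1* KO mice 1 or 3 were left out singly, no member was DE, and few or no genes of any kind were lower (all genes, 0.114%, 0.566%, 0.0% and 0.0% in that order). At an unadjusted p under 0.05 by edgeR these fits gave 4 to 6 members (all genes, 27.6%, 27.5%, 31.5% and 27.3%). Without *Ifnar1* KO 2 the members DE were *Mcm6* and *Mcm7* (all genes lower, 8.75%).

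*Melk* (ENSMUSG00000035683, chr4:44300876-44364675, plus strand) stood at 1.49, 0.298 and 2.13 CPM in the WT mice, 0.345, 0.824, 0.569, 0.578 and 0.577 CPM in the *Tlr7* KO mice and 0.102, 0.187 and 0.167 CPM in the *Ifnar1* KO mice. All 3 *Ifnar1* KO mice were below WT 2, the lowest WT mouse, and the log2 fold change was -3.13 ± 0.754 (SE, adjusted p = 0.0328) by the edgeR test. *Kif23* (ENSMUSG00000032254, chr9:61915905-61946774, minus strand) stood at 1.12, 0.256 and 0.738 CPM in the WT mice, 0.191, 0.694, 0.304, 0.289 and 0.315 CPM in the *Tlr7* KO mice and 0.171, 0.149 and 0.125 CPM in the *Ifnar1* KO mice, again with no overlap between WT and *Ifnar1* KO mice and with -2.25 ± 0.637 (SE, adjusted p = 0.0467). These are low counts, with 3, 5 and 4 counts of *Melk* and 5, 4 and 3 of *Kif23* in the *Ifnar1* KO mice, and both passed the filter through WT. DESeq2 and the other count table also called both, but each call was lost in 5 of 6 fits that left out 1 mouse (all but that without WT 2, adjusted p up to 0.108 for *Melk* and 0.169 for *Kif23*), and that of *Kif23* with library totals alone (adjusted p = 0.0657). *Mcm7* had -1.34 ± 0.252 (SE, adjusted p = 0.0239) by the edgeR test, with the 3 *Ifnar1* KO mice below all 8 others, and its call was lost in 4 of 6 fits that left out 1 mouse, those that kept WT 2 and *Ifnar1* KO 2 (adjusted p up to 0.08).

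The 6 helicase subunits, which form a single ring, had estimates of unequal size in *Ifnar1* KO mice. Log2 fold changes by the edgeR test were -1.81 ± 0.628 (SE, adjusted p = 0.0841) for *Mcm5*, -1.63 ± 0.51 (SE, adjusted p = 0.0663) for *Mcm6* and -1.49 ± 0.502 (SE, adjusted p = 0.0763) for *Mcm3*, beside -0.51 ± 0.275 (SE, adjusted p = 0.216) for *Mcm4* and -0.22 ± 0.177 (SE, adjusted p = 0.398) for *Mcm2*. The differences among subunits were not tested. *Pcna*, *Rrm2* and *Tyms* lay near 0, with -0.11 ± 0.193, 0.07 ± 0.175 and 0.03 ± 0.162 (log2 fold change ± SE), and *Cdc45* had 0.32 ± 0.33 (SE, adjusted p = 0.508) by the edgeR test. *Rrm1*, which also acts in nucleotide supply, had -0.50 ± 0.163 (SE, adjusted p = 0.067), and its WT and *Ifnar1* KO mice did not overlap. *Cdc6*, which loads the helicase onto DNA, stood at 0.644, 0.1703 and 0.9296 CPM in the WT mice, 0.651, 0.997, 0.721, 0.702 and 0.472 CPM in the *Tlr7* KO mice and 0.137, 0.635 and 0.293 CPM in the *Ifnar1* KO mice.

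Of the 7 role groups, the kinetochore group had the lowest median in *Ifnar1* KO over WT mice, -1.94 for 4 tested genes. This ranking covers only genes kept by the filter, which read WT counts alone, and was not tested with another filter. The *Ifnar1* KO mice had 4, 7 and 1 counts of *Cenpe*, 2, 6 and 0 of *Cenpf*, 3, 9 and 2 of *Ndc80*, and 8, 10 and 5 of *Spc25*. *Nuf2*, which the filter removed, had similar means, 0.295 CPM over the WT mice against 0.26 over the *Ifnar1* KO mice. *Cenpe*, a motor that links kinetochores to microtubules, stood at 0.814, 0.213 and 0.957 CPM in the WT mice, 0.574, 0.477, 0.531, 0.578 and 0.262 CPM in the *Tlr7* KO mice and 0.137, 0.262 and 0.0418 CPM in the *Ifnar1* KO mice. WT 2 fell within the *Ifnar1* KO mice, and the estimate was -2.18 ± 0.753 (SE, adjusted p = 0.078) by the edgeR test. *Spc25*, a subunit of the NDC80 complex, stood at 0.644, 0.426 and 1.15 CPM in the WT mice, 0.345, 0.433, 0.3796, 0.743 and 0.944 CPM in the *Tlr7* KO mice and 0.273, 0.374 and 0.209 CPM in the *Ifnar1* KO mice, with no overlap between WT and *Ifnar1* KO mice and -1.40 ± 0.513 (SE, adjusted p = 0.0904). *Cenpf*, a large kinetochore protein, had -2.49 ± 0.866 (SE, adjusted p = 0.0793) and the checkpoint kinase gene *Bub1* had -1.87 ± 0.754 (SE, adjusted p = 0.115).

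The cyclin and kinase genes had a median of -1.48 over 4 members. *Ccna2*, which codes for cyclin A and shares exon bases with *Exosc9*, stood at 2.07, 0.554 and 2.02 CPM in the WT mice, 0.842, 1.73, 1.48, 1.404 and 1.68 CPM in the *Tlr7* KO mice and 0.342, 0.897 and 0.334 CPM in the *Ifnar1* KO mice. WT 1 and WT 3 exceeded all *Ifnar1* KO mice, WT 2 did not, and the estimate was -1.60 ± 0.61 (SE, adjusted p = 0.0998) by the edgeR test. *Cdk1* had -0.76 ± 0.737 (SE, adjusted p = 0.485) in the same comparison. *Aurka*, the kinase of the spindle poles, stood at 1.36, 0.9795 and 1.53 CPM in the WT mice, 1.19, 0.867, 1.78, 1.16 and 1.15 CPM in the *Tlr7* KO mice and 0.922, 1.05 and 1.92 CPM in the *Ifnar1* KO mice, and its estimate was -0.02 ± 0.382 (SE, adjusted p = 0.973). Of the 31 tested members outside the replication group it had the estimate nearest 0 in *Ifnar1* KO mice. *Mki67* had -1.70 ± 0.634 (SE, adjusted p = 0.101), *Top2a* had -1.67 ± 0.616 (SE, adjusted p = 0.0972) and *Nusap1*, a spindle microtubule protein, had -1.79 ± 0.603 (SE, adjusted p = 0.0729) by the edgeR test.

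**Figure D4:**
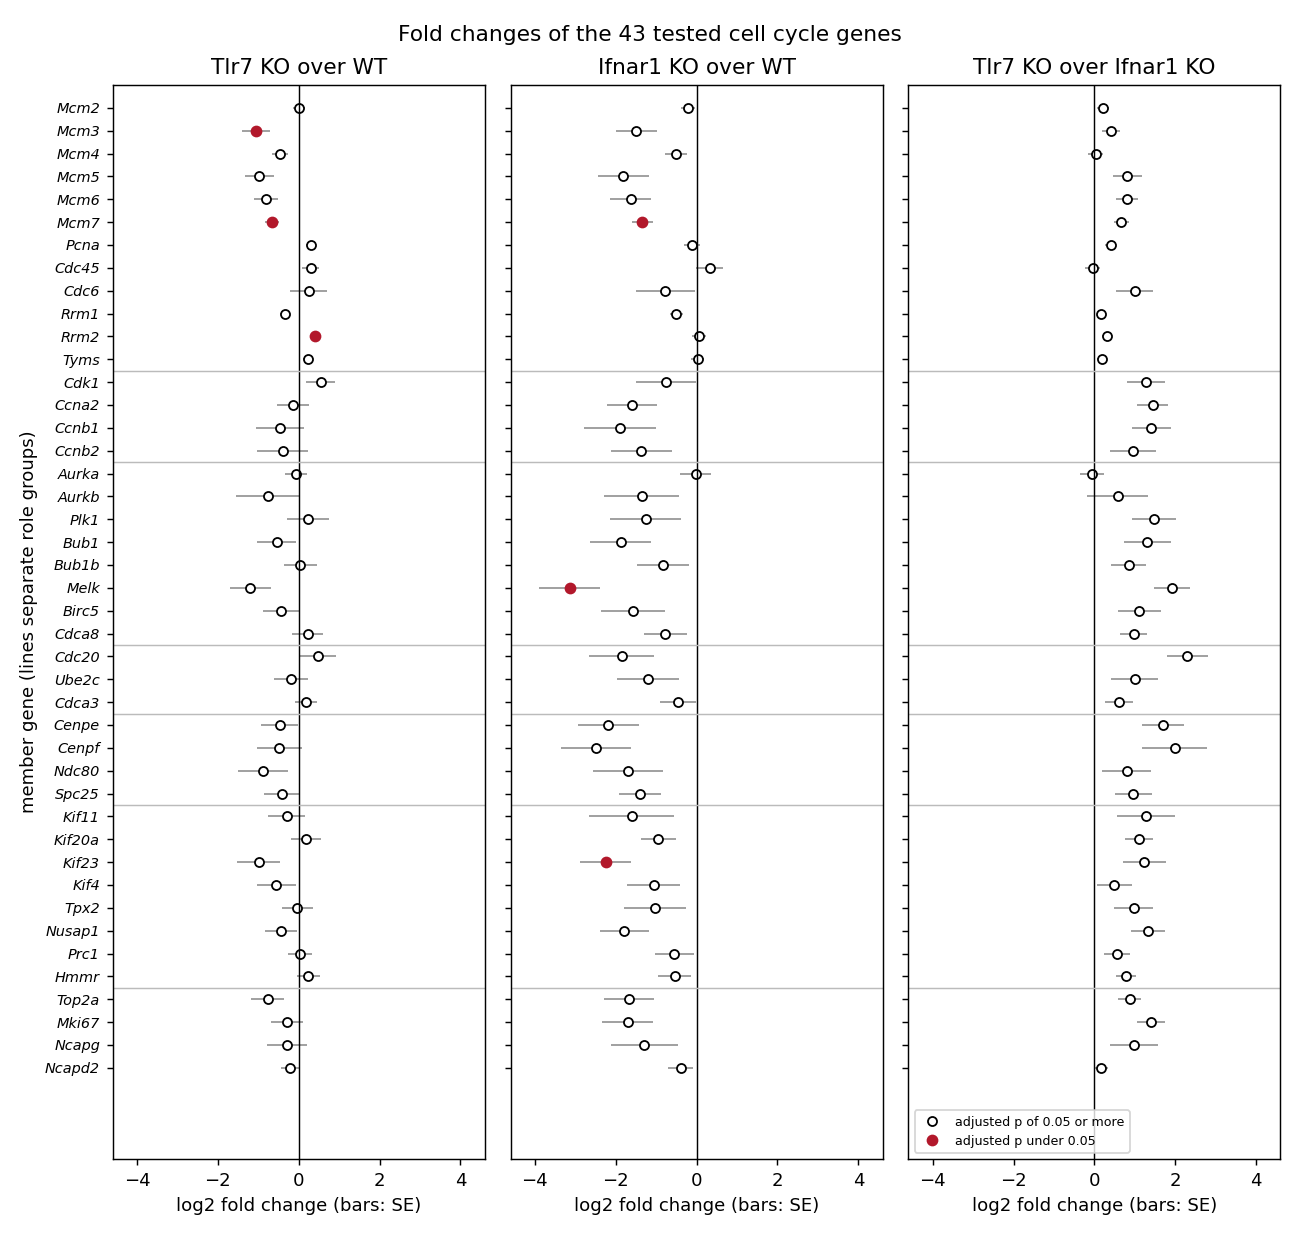
Points are log2 fold changes of the 43 tested members with SE bars in the 3 comparisons, filled where the adjusted p of the edgeR test was under 0.05, and grey lines separate role groups. Estimates scatter about 0 for *Tlr7* KO over WT, lie left of 0 for 40 members in *Ifnar1* KO over WT, and lie right of 0 for 41 members in *Tlr7* KO over *Ifnar1* KO, where none is filled. The WT mice are shared by the first panels.

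Between the knockouts, 41 of 43 members had higher estimates in *Tlr7* KO than in *Ifnar1* KO mice (all genes, 50.2%), with a median log2 fold change of 0.96 (all genes, 0.00). No member was DE by the edgeR quasi-likelihood test, in a comparison where 1.51% of all genes were DE, with 0.768% higher and 0.746% lower in *Tlr7* KO mice. At an unadjusted p under 0.05, 22 of 43 members were higher in *Tlr7* KO mice (all genes, 8.01%) and 0 were lower (all genes, 7.86%). The mice of the knockouts did not overlap for 16 members, all higher in *Tlr7* KO (all genes, 5.44% higher and 5.42% lower). These were *Mcm7*, *Rrm1*, *Rrm2*, *Cdk1*, *Ccnb1*, *Bub1*, *Melk*, *Cdca8*, *Cdc20*, *Cenpe*, *Kif20a*, *Kif23*, *Nusap1*, *Hmmr*, *Top2a* and *Mki67*. DESeq2 called 4 members higher in *Tlr7* KO mice (all genes, 2.43%), *Ccna2*, *Cdc20*, *Melk* and *Mki67*. Without *Ifnar1* KO 2 the edgeR count was 18 of 43, all higher in *Tlr7* KO mice (all genes, 3.61%), and it stayed at 0 without any other mouse.

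*Cdc20* (ENSMUSG00000006398, chr4:118432901-118437352, minus strand), the activator of the anaphase-promoting complex, stood at 1.63, 0.341 and 1.804 CPM in the WT mice, 2.11, 1.43, 2.54, 1.57 and 1.21 CPM in the *Tlr7* KO mice and 0.273, 0.7102 and 0.0836 CPM in the *Ifnar1* KO mice. Every *Tlr7* KO mouse exceeded every *Ifnar1* KO mouse, and the log2 fold change was 2.30 ± 0.497 (SE, adjusted p = 0.0514) by the edgeR test, the highest estimate of any member. It shares exon bases with *Elovl1*. *Melk* had 1.91 ± 0.44 (SE, adjusted p = 0.0598), *Cenpf* had 1.98 ± 0.802 (SE, adjusted p = 0.262) and *Cenpe* had 1.69 ± 0.52 (SE, adjusted p = 0.14). *Mki67* had group means of 5.12 ± 0.988 CPM in *Tlr7* KO (SD, n = 5) and 1.96 ± 1.18 CPM in *Ifnar1* KO (SD, n = 3), without overlap, and a log2 fold change of 1.39 ± 0.346 (SE, adjusted p = 0.0954) by the edgeR test.

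Cyclin and mitotic kinase genes mostly had higher estimates in *Tlr7* KO than in *Ifnar1* KO mice. Log2 fold changes by the edgeR test were 1.44 ± 0.383 (SE, adjusted p = 0.0949) for *Ccna2*, 1.41 ± 0.476 (SE, adjusted p = 0.179) for *Ccnb1*, which codes for cyclin B1, 1.28 ± 0.466 (SE, adjusted p = 0.225) for *Cdk1* and 1.47 ± 0.545 (SE, adjusted p = 0.223) for the mitotic kinase gene *Plk1*. *Cdca8*, a chromosomal passenger protein, stood at 1.36, 0.383 and 0.957 CPM in the WT mice, 0.996, 1.52, 0.759, 1.198 and 0.839 CPM in the *Tlr7* KO mice and 0.615, 0.673 and 0.334 CPM in the *Ifnar1* KO mice, with no overlap between the knockouts and 0.97 ± 0.337 (SE, adjusted p = 0.194). *Cdca3*, an adaptor for degradation of a mitotic inhibitor, stood at 1.32, 0.809 and 1.04 CPM in the WT mice, 0.804, 1.34, 1.25, 1.11 and 1.52 CPM in the *Tlr7* KO mice and 0.888, 1.08 and 0.376 CPM in the *Ifnar1* KO mice, with overlap. In contrast, *Aurka* lay near 0, at -0.06 ± 0.308 (SE, adjusted p = 0.946).

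Spindle, cytokinesis and chromosome genes were also higher in their estimates in *Tlr7* KO than in *Ifnar1* KO mice. *Prc1*, which bundles microtubules of the central spindle and shares exon bases with *Rccd1*, stood at 2.07, 1.15 and 2.84 CPM in the WT mice, 2.34, 2.12, 2.58, 1.98 and 1.42 CPM in the *Tlr7* KO mice and 1.02, 2.35 and 0.878 CPM in the *Ifnar1* KO mice, where *Ifnar1* KO 2 lay within the *Tlr7* KO mice. *Hmmr*, a microtubule-binding protein, stood at 1.22, 0.639 and 1.53 CPM in the WT mice, 1.11, 1.52, 1.56, 1.198 and 1.42 CPM in the *Tlr7* KO mice and 0.717, 1.01 and 0.669 CPM in the *Ifnar1* KO mice, without overlap between the knockouts. The log2 fold changes were 0.77 ± 0.248 (SE, adjusted p = 0.158) for *Hmmr*, 1.33 ± 0.424 (SE, adjusted p = 0.154) for *Nusap1*, 1.11 ± 0.348 (SE, adjusted p = 0.145) for the cytokinesis motor gene *Kif20a* and 1.23 ± 0.532 (SE, adjusted p = 0.29) for *Kif23* by the edgeR test. *Top2a* had 0.87 ± 0.289 (SE, adjusted p = 0.169). *Ncapd2*, a condensin subunit, stood at 2.81, 1.75 and 3.58 CPM in the WT mice, 2.72, 2.08, 2.54, 2.44 and 1.99 CPM in the *Tlr7* KO mice and 2.32, 2.32 and 1.71 CPM in the *Ifnar1* KO mice, and its mice overlapped in every pair of groups.

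Replication genes had smaller estimates between the knockouts, with a median of 0.36 over 12 members beside 0.99 over the 31 others, a difference that was not tested. *Mcm7* had 0.66 ± 0.183 (SE, adjusted p = 0.108), *Mcm6* 0.81 ± 0.278 (SE, adjusted p = 0.191), *Pcna* 0.40 ± 0.135 (SE, adjusted p = 0.17) and *Rrm2* 0.31 ± 0.127 (SE, adjusted p = 0.26) by the edgeR test. *Mcm2*, *Mcm4* and *Cdc45* lay closer to 0, at 0.22 ± 0.145, 0.03 ± 0.188 and -0.04 ± 0.182 (log2 fold change ± SE).

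The untested members were read too shallowly for the filter. *Nuf2*, a subunit of the NDC80 complex, stood at 0.373, 0.128 and 0.383 CPM in the WT mice, 0.383, 0.2601, 0.493, 0.248 and 0.157 CPM in the *Tlr7* KO mice and 0.205, 0.449 and 0.125 CPM in the *Ifnar1* KO mice. *Ttk*, a kinase of the spindle checkpoint, stood at 0.407, 0.0426 and 0.246 CPM in the WT mice, 0.0766, 0.13, 0.266, 0.289 and 0.262 CPM in the *Tlr7* KO mice and 0.102, 0.299 and 0 CPM in the *Ifnar1* KO mice. Neither separated the genotypes.

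Other genes of the cell cycle, from lists of further regulators, were counted in the same tests, in which 17.1% and 12.1% of all genes were DE lower in *Tlr7* KO and *Ifnar1* KO mice. Of 18 tested regulators of G1 and S phase, 4 were DE lower in *Tlr7* KO mice and 1 in *Ifnar1* KO mice. *Ccnd2*, which codes for cyclin D2, stood at 11.97, 4.64 and 10.4 CPM in the WT mice, 2.76, 4.81, 2.16, 2.15 and 3.83 CPM in the *Tlr7* KO mice and 1.91, 3.36 and 1.71 CPM in the *Ifnar1* KO mice, with -1.53 ± 0.359 (SE, adjusted p = 0.0139) in *Tlr7* KO and -1.98 ± 0.42 (SE, adjusted p = 0.0277) in *Ifnar1* KO mice by the edgeR test. *E2f7*, an E2F repressor, had -1.50 ± 0.435 (SE, adjusted p = 0.0261) in *Tlr7* KO mice. *Cdk4*, the kinase that cyclin D2 binds, had group means of 23.02 ± 1.39, 21.2 ± 0.5103 and 20.9 ± 0.825 CPM (SD, in WT, *Tlr7* KO and *Ifnar1* KO mice, n = 3, 5 and 3).

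Genes that restrain division were among those lower in the knockouts. Of 9 tested CDK inhibitors and antiproliferative genes, 4 were DE lower in *Tlr7* KO mice and 7 in *Ifnar1* KO mice, with medians of -0.65 and -1.78, and none was higher. None of the 7, nor any other lower call on these lists in *Ifnar1* KO mice, held without *Ifnar1* KO 1 or *Ifnar1* KO 3. No gene was then DE and lower (all genes at an unadjusted p under 0.05 by edgeR, 31.5% and 27.3%). *Cdkn2d*, an inhibitor of CDK4 and CDK6, stood at 2.88, 1.24 and 2.65 CPM in the WT mice, 0.842, 0.9103, 0.152, 0.578 and 0.629 CPM in the *Tlr7* KO mice and 0.205, 0.748 and 0.376 CPM in the *Ifnar1* KO mice, with -1.87 ± 0.45 (SE, adjusted p = 0.0128) in *Tlr7* KO and -2.38 ± 0.533 (SE, adjusted p = 0.0285) in *Ifnar1* KO mice by the edgeR test. *Btg1*, an antiproliferative gene abundant in resting lymphocytes, had -1.63 ± 0.289 (SE, adjusted p = 0.00554) in *Tlr7* KO mice, and *Cdkn2c*, another CDK4 and CDK6 inhibitor, had -2.22 ± 0.462 (SE, adjusted p = 0.0268) in *Ifnar1* KO mice. *Rbl2*, a pocket protein of the DREAM complex, had group means of 37.1 ± 9.06, 38.1 ± 3.22 and 40.8 ± 4.47 CPM in the same order.

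Of 27 tested further replication genes, 4 were DE lower in *Tlr7* KO mice and 3 in *Ifnar1* KO mice. The polymerase delta subunit gene *Pold1* had -1.20 ± 0.29 (SE, adjusted p = 0.0127) and the maintenance methyltransferase gene *Dnmt1* had -1.07 ± 0.211 (SE, adjusted p = 0.00592) in *Tlr7* KO mice by the edgeR test. *Dbf4* had -1.94 ± 0.538 (SE, adjusted p = 0.0445) and its partner kinase *Cdc7*, which fires replication origins, had -1.49 ± 0.409 (SE, adjusted p = 0.0431) in *Ifnar1* KO mice. *Fen1*, the flap endonuclease, had group means of 6.35 ± 0.9205, 7.96 ± 0.597 and 7.195 ± 1.62 CPM. Of 41 tested further mitosis genes, 6 were DE lower in each knockout and 1 was higher in *Tlr7* KO mice. *Cit*, a cytokinesis kinase, had -1.86 ± 0.553 (SE, adjusted p = 0.029) and the spindle motor gene *Kif15* had -1.48 ± 0.485 (SE, adjusted p = 0.0409), while *Cks1b*, a subunit that binds CDKs, had 0.42 ± 0.131 (SE, adjusted p = 0.0351) in *Tlr7* KO mice, a call lost in 6 of 8 fits that left out 1 mouse (adjusted p up to 0.13) and an estimate of -0.04 with library totals alone. The spindle protein gene *Dlgap5* had -2.95 ± 0.667 (SE, adjusted p = 0.0288) and *Ccnf*, which codes for cyclin F, had -2.47 ± 0.585 (SE, adjusted p = 0.0315) in *Ifnar1* KO mice. Both passed the filter through WT, with at most 4 and 5 counts in an *Ifnar1* KO mouse, and filterByExpr did not keep them, nor *Cit* and *E2f7* in *Tlr7* KO mice. *Bub3*, a checkpoint protein, had group means of 12.9 ± 0.823, 11.3 ± 1.06 and 11.8 ± 0.361 CPM. Of the 16 calls named from these lists, 14 were lost in at least 1 of the fits that left out 1 mouse, and those of *Btg1* and *Dnmt1* in *Tlr7* KO mice were kept in all of them. Between the knockouts none of the genes on these lists was DE by the edgeR test (all genes, 1.51%). Of the 41 further mitosis genes, 19 were higher in *Tlr7* KO mice at an unadjusted p under 0.05 (all genes, 8.01%), beside 2 of 18, 3 of 9 and 3 of 27 in the other lists.

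Markers of lymphocytes moved with the genotypes too. In bulk samples, fewer cells of a type and less RNA per cell cannot be told apart. The summed level of 12 B cell markers was 355, 101.4 and 315 CPM in the WT mice, 26.5, 67.1, 8.81, 18.5 and 20.8 CPM in the *Tlr7* KO mice and 12.98, 26.5 and 3.18 CPM in the *Ifnar1* KO mice. All 12 were DE lower in each knockout, and of 13 T cell markers 11 were DE lower in *Tlr7* KO and 10 in *Ifnar1* KO mice (all genes, 17.1% and 12.1%). None of these calls in *Ifnar1* KO mice held without *Ifnar1* KO 1 or *Ifnar1* KO 3, when no gene was DE and lower (all genes at an unadjusted p under 0.05 by edgeR, 31.5% and 27.3%). The summed T cell level was 111, 34.9 and 85.7 CPM, then 17.4, 42.96, 8.05, 13.96 and 15.7 CPM, and then 7.65, 20.2 and 2.13 CPM. WT 2 was the lowest WT mouse for these sums, as it was for the mitotic members, and *Ifnar1* KO 2 the highest *Ifnar1* KO mouse. The 7 genes listed as plasma cell markers had another order, with sums of 665.5, 824.1 and 663 CPM in the WT mice, 543.7 to 643.5 CPM in the *Tlr7* KO mice and 615.8 to 724.2 CPM in the *Ifnar1* KO mice, WT 2 being the highest. These genes went both ways, and which cells of the gland made their transcripts was not tested. In *Tlr7* KO mice *Mzb1*, *Jchain* and *Irf4* were DE lower and *Sdc1* higher (all genes, 17.1% and 15.3%). In *Ifnar1* KO mice *Mzb1* was DE lower and *Sdc1* higher (all genes, 12.1% and 6.92%).

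Within the *Tlr7* KO group the order differed. *Tlr7* KO 3 had the highest sum of mitotic members, 38.4 CPM, beside the lowest B and T cell sums of that group, and *Tlr7* KO 2 had the highest B and T cell sums beside 35.2 CPM. The ratio of *Mki67* to the leukocyte gene *Ptprc* was 0.114, 0.11 and 0.158 in the WT mice, 0.538, 0.245, 1.3, 0.751 and 0.571 in the *Tlr7* KO mice and 0.46, 0.376 and 0.6 in the *Ifnar1* KO mice, and *Ptprc* itself stood at 65.7, 18.99 and 56.9 CPM in the WT mice, 9.04, 19.6, 5.12, 6.98 and 6.97 CPM in the *Tlr7* KO mice and 3.86, 8.56 and 1.46 CPM in the *Ifnar1* KO mice. Both genes had lower means in the knockouts, *Ptprc* by log2 fold changes of -2.31 ± 0.521 (SE, adjusted p = 0.0142) in *Tlr7* KO and -3.38 ± 0.706 (SE, adjusted p = 0.0277) in *Ifnar1* KO mice by the edgeR test, so the higher ratios in the knockouts go with a lower denominator. Between the knockouts the B cell markers had a median log2 fold change of 1.01 and the T cell markers of 1.0, beside 0.96 for the members, and none of the 12 or 13 was DE. Macrophage and dendritic cell markers summed to 525, 297 and 396 CPM in the WT mice, 214 to 271 CPM in the *Tlr7* KO mice and 102, 201 and 74.8 CPM in the *Ifnar1* KO mice, and endothelial markers to 25.5, 14.6 and 22.8 CPM, 10.6 to 14.6 CPM and 8.78, 9.91 and 6.98 CPM. Of the 5 endothelial markers, 2 were DE lower and 1, *Kdr*, higher in *Tlr7* KO mice (all genes, 17.1% and 15.3%). Gland epithelial markers ran from 968 to 1198 CPM in WT mice, from 1360 to 1436 CPM in *Tlr7* KO mice and from 1380 to 1594 CPM in *Ifnar1* KO mice. These 9 did not move together, with median log2 fold changes of 0.03 and 0.26. In *Tlr7* KO mice 1 was DE lower and 3 higher. In *Ifnar1* KO mice 2 were lower and 1 higher (all genes, 12.1% and 6.92%), and *Krt19* was lower in both. Germinal centre B cell markers summed to 6.85, 6.303 and 6.45 CPM in WT mice, 4.02 to 5.21 CPM in *Tlr7* KO mice and 3.38 to 4.35 CPM in *Ifnar1* KO mice, and 1 of the 3 tested, *S1pr2*, was DE between the knockouts at 1.45 ± 0.271 (SE, adjusted p = 0.0277), higher in *Tlr7* KO mice, by the edgeR test. The part of these cell types in the levels of the members was not tested.

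**Figure D5:**
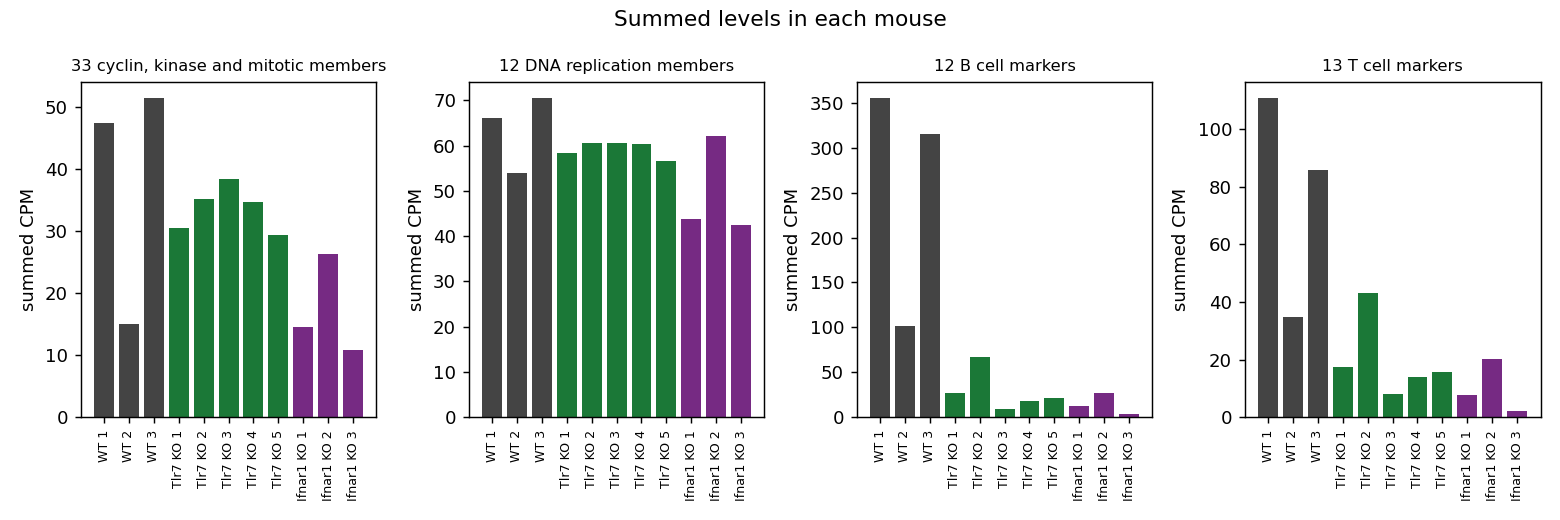
Bars give the summed TMM-scaled CPM in each mouse for the 33 members outside the replication group, the 12 replication members, 12 B cell markers and 13 T cell markers, each on its own axis from 0. The mitotic sum of the *Tlr7* KO mice stays between 29.4 and 38.4 CPM while their B cell sum runs from 8.81 to 67.1 CPM.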

How the data were processed

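RNA from 1 lacrimal gland of each of 11 male NOD mice was sequenced. The authors used bcbio-nextgen 1.0.8, aligning reads with HISAT2 2.1.0 to mm10 and quantifying transcripts with salmon 0.9.1 (Ensembl 97). Which of these pipelines made which table is not given in the sources used here. The deposited table used is named as normalized, but its whole-number values have unequal library totals and no common scale, and it was taken as gene-level estimated counts. The second deposited table holds raw counts per gene and was an alternative. One column matching no sample was not used. Reads that fall in exons shared by neighbouring genes, which 14 members have, cannot be assigned with certainty. Genes with at least 30 counts summed over WT mice were tested pairwise with edgeR 4.0.16 (R 4.3.3; TMM, robust quasi-likelihood F test, Benjamini-Hochberg adjustment over 13937 genes) and tested on simulated data. SE is the absolute log2 fold change over the square root of F. DESeq2 1.42.0 and other filters, scalings and thresholds were alternatives. Every member could be named. The mice shown individually were, by rule, for the 2 members of highest mean CPM per role, *Mki67*, *Top2a*, *Cdk1* and *Pcna*, and for members that were DE, and *Cdc6*, *Nuf2* and *Ttk* were added after their values were seen. From the other lists the gene of highest mean CPM and at most 2 DE genes per direction were named. Members and lists were chosen with earlier results of these data known. Gene positions are GENCODE M21 (GRCm38), matched for all 45 IDs, and promoters are RefSeq.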

Additional observations from a re-analysis of the deposited data

Results flagged for a closer look

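Among 45 members in the 5 *Tlr7* KO mice, 4 had a mouse far from the other 4 by Dixon's 95% criterion, which chance alone meets for about 1 gene in 20. *Mcm2* was highest in *Tlr7* KO 3 at 6.76 CPM. *Mcm4* was lowest in *Tlr7* KO 5 at 2.67 CPM. *Birc5*, which codes for survivin of the chromosomal passenger complex, was highest in *Tlr7* KO 2 at 1.34 CPM. *Kif23* was highest in the same mouse at 0.694 CPM. The WT and *Ifnar1* KO groups of 3 mice were not tested with this criterion.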

How the results depend on the processing

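The direction of the members as a whole held in the comparisons with *Ifnar1* KO mice and not in that of WT with *Tlr7* KO mice. Leaving out 1 mouse at a time, the median log2 fold change of the members ran from -0.60 to 0.08 between WT and *Tlr7* KO, from -1.81 to -0.84 between WT and *Ifnar1* KO, and from 0.61 to 1.36 between the knockouts. Without WT 3 only 33 members passed the filter, with medians of 0.08 and -0.84, where the same 33 had -0.19 and -1.03 with all mice kept, and 25 and 31 of them kept their sign. Members DE lower ran from 0 to 13 and higher from 1 to 2 in *Tlr7* KO mice, lower from 0 to 19 and higher 0 in *Ifnar1* KO mice, and between the knockouts 0 were lower and 0 to 18 higher in *Tlr7* KO mice. All genes DE ran from 2510 to 6609, from 0 (4387 at an unadjusted p under 0.05 by edgeR without *Ifnar1* KO 1) to 4718, and from 81 to 867. The cause was not tested.

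All genes DE numbered 4528, 2648 and 211 in the tests reported. With other settings the members DE lower in *Tlr7* KO mice numbered 4 by DESeq2 (4599 of all genes in either direction), 4 in the other count table (3985), 7 with library totals alone (4410), 1 at 2-fold or more and 0 at an adjusted p under 0.01, and those higher 0 with library totals alone, at 0.01 and at 2-fold. In *Ifnar1* KO mice 8 were lower by DESeq2 (3356 of all genes), 15 with all 11 mice in 1 fit, 1 with filterByExpr (2489), which left 34 members to test and removed *Melk* and *Kif23*, and 0 at 0.01. Between the knockouts 4 were higher in *Tlr7* KO mice by DESeq2, 2 with filterByExpr (228), 1 with no filter (227) and 1 in the other table (204). All genes DE numbered 1888 at 0.01 and 1653 at 2-fold in *Tlr7* KO mice, then 998 with library totals, 5097 in 1 fit, 1 at 0.01 and 1551 at 2-fold in *Ifnar1* KO mice, and 577 by DESeq2, 75 in 1 fit, 32 at 0.01 and 93 at 2-fold between the knockouts. The deviations of same-numbered mice correlated at -0.47 to -0.0363 in the comparisons with WT and at 0.0655 to 0.332 between the knockouts. Correlations of differently numbered mice were not computed, so these values cannot show whether the shared replicate numbers pair the mice. With the replicate number as a block, 0 members were DE in either knockout against WT (0 and 5 at an unadjusted p under 0.05 by edgeR), and all genes DE numbered 17, 0 (3875 at an unadjusted p under 0.05) and 541 between the knockouts.

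Some estimates changed sign, among them the DE calls of *Rrm2* and *Cks1b* in *Tlr7* KO mice with library totals alone. With library totals alone, log2 fold changes in *Tlr7* KO mice were -0.50 for *Mcm2*, -0.10 for *Rrm2*, -0.28 for *Tyms*, -0.21 for *Pcna*, -0.11 for *Cdc45*, -0.06 for *Cdk1*, -0.14 for *Cdc20* and -0.04 for *Cks1b*, those in *Ifnar1* KO mice -0.22 for *Rrm2* and -0.28 for *Tyms*, and that between the knockouts -0.15 for *Mcm4*. That scaling moved the median of all genes to -0.54, -0.31 and -0.19. With filterByExpr *Mcm2* was -0.01 in *Tlr7* KO and *Tyms* -0.00 in *Ifnar1* KO mice, in the other table *Mcm4* was -0.12 and *Cdc45* 0.01 between the knockouts, and with the block *Aurka* was 0.00. Leaving out 1 mouse gave -0.08 to 0.11 for *Mcm2*, -0.53 to 0.12 for *Ccna2* and -0.69 to 0.08 for *Mki67* in *Tlr7* KO mice. In *Ifnar1* KO mice it gave -0.02 to 0.19 for *Rrm2*, -0.02 to 0.10 for *Tyms*, -0.29 to 0.01 for *Pcna* and -0.44 to 0.19 for *Aurka*. Between the knockouts it gave -0.11 to 0.27 for *Mcm4*, -0.20 to 0.29 for *Cdc45* and -0.25 to 0.33 for *Aurka*. Many members had few counts in WT 2 and *Ifnar1* KO 3, and the part of depth in their spread was not tested.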
